A study of Mus musculus with 22 samples.

Results

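MHC class I and peptide loading genes were followed in donor-derived intestinal neutrophils of mice with acute graft-versus-host disease (aGVHD). The 9 listed genes were picked by name, whatever their values: the heavy chains H2-K1, H2-D1 and H2-Q10, the light chain B2m, the peptide transporter subunits Tap1 and Tap2, the loading factor Tapbp and the immunoproteasome subunits Psmb8 and Psmb9. Rows for 8 of them were found by name among 23091 genes, and H2-K1 was not analysed here. The aGVHD group had 12 libraries, and the control group had 10. Each library held cells of the ileum, Peyer's patches removed, that had passed a sort for CD45+H2kb+CD11b+Ly6G+, which takes donor neutrophils. They were read by CEL-Seq2, a plate method that tags the 3′ end of each transcript with a molecular identifier, so levels need no division by gene length. Recipients of both groups were BALB/c mice of 7 to 9 weeks, irradiated with 2 doses of 5 Gy, and all received 5000000 bone marrow cells of C57BL/6 donors aged 7 to 10 weeks. Cells were taken on day 21. The aGVHD recipients were also given 400000 donor T cells, which the control recipients were not. Which mouse a library came from is not in the labels, and the p-values reflect scatter among libraries that could be technical in part.

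MHC class I molecules carry peptides from inside the cell to the surface, where CD8 T cells and some receptors of myeloid and natural killer cells read them. The proteasome cuts proteins, the TAP transporter moves the peptides into the endoplasmic reticulum, and tapasin holds an empty heavy chain and β2-microglobulin next to TAP until a peptide binds. Interferons are known to raise many of these genes, and mismatched MHC molecules are main targets of donor T cells in graft-versus-host disease. The sort itself used the protein of H2-K1 in its b allele (H2-Kb), so every gated cell was chosen for surface class I of the donor, in both groups.

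Of 4224 barcodes, 1383 reached 500 transcripts and were taken as cells, 1025 from aGVHD and 358 from control libraries. A library gave 74 to 95 cells and 192625 to 347985 transcripts in the aGVHD group, against 11 to 60 cells and 29334 to 223216 transcripts in the control group. The titles form a dated set (8 aGVHD and 6 control libraries) and a G1 set (4 and 4). Clusters named from markers gave 659 neutrophil-like cells (504 aGVHD, 155 control), which made up 49.1 ± 15.7% of the cells of an aGVHD library (SD, n = 12) and 40.9 ± 9.34% of those of a control library (SD, n = 10). The label was checked against markers. Of the neutrophil markers, 20 of 22 had transcripts, and their summed level had a median of 19854 CPM in aGVHD libraries and 11136 CPM in control libraries. CPM here means transcripts per 1e+06 transcripts of the genes tested, after trimmed-mean scaling of the libraries. In such sums, fewer cells of a type and less RNA per cell cannot be told apart. Markers of other cells were present too. Summed dendritic markers had a median of 230 CPM in aGVHD libraries and 624 CPM in control libraries, T or NK markers 16.4 CPM in aGVHD and 109 CPM in control libraries, and epithelial markers 191.9 CPM in aGVHD and 1011 CPM in control libraries. Not every list was lower in aGVHD. Macrophage/monocyte markers had a median of 1720 CPM in aGVHD and 1794 CPM in control libraries. Erythroid markers had 163 CPM in aGVHD and 102 CPM in control libraries, and eosinophil markers 39.4 CPM in aGVHD and 15.4 CPM in control libraries. The part of these other cells in the differences of the members was not tested, beyond the fit within neutrophil-like cells.

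The promoters of the 2 heavy chains and of B2m are printed because they hold, or lack, letters by which class I genes are known to be switched on. They run from 250 bases before to 50 bases after the gene start in RefSeq on GRCm38.p6; 7 of the 9 listed genes, H2-D1, H2-Q10, B2m, Tap1, Tapbp, Psmb8 and Psmb9, were matched by symbol and used. Capitals mark a palindromic NF-kB site of class I genes (in the H2-D1 line, searched on both strands), a gamma-activated site (TTCNNNGAA) or the core of an interferon-stimulated response element (GAAA, any 2 bases, GAAA, read on both strands).
H2-D1, chr17:35262844-35263143, plus strand: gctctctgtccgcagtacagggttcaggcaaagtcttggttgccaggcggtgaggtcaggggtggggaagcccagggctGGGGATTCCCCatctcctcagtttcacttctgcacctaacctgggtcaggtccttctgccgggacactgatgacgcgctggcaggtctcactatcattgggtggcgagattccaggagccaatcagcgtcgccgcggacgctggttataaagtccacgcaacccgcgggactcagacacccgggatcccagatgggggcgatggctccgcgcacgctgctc
H2-Q10, chr17:35469839-35470138, plus strand: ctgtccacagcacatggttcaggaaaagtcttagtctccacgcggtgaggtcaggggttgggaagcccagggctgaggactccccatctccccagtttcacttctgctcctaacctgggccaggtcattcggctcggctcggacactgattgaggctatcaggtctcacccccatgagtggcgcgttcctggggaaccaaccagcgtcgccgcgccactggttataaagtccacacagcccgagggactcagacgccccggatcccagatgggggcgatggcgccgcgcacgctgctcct
B2m, chr2:122147437-122147736, plus strand: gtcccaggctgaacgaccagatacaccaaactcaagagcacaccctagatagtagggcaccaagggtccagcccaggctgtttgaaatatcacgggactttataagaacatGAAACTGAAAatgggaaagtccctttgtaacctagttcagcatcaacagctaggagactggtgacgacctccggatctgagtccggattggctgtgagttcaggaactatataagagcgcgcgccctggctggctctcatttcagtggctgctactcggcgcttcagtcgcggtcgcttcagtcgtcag
The H2-D1 and H2-Q10 windows were identical in 82.6% of 310 aligned columns, and the NF-kB letters stood in H2-D1, 171 to 161 bases before its start, but not in H2-Q10. Over all 32851 promoters of the same length, 10 held those letters (0.0304%). The interferon-stimulated core stood in B2m, 139 to 130 bases before its start, and in 3.44% of all promoters. Only its exact letters were searched, so a looser form of the element would be missed. Both heavy chain windows hold the letters agtttcacttct, which resemble the core read on the other strand but do not match it. The lack of a match in H2-D1 and H2-Q10 is thus not the lack of such an element. H2-D1 also held the letters TGACGC of the X2 box (7.40% of all promoters) and the Y box letters CCAAT on either strand (37.4% of all promoters), and neither was found in H2-Q10. The matches are a description of letters and not of bound sites.

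Tap1 and Psmb9 lie head to head, and their promoter windows share 275 bases, so a single stretch stands upstream of a transporter subunit and of an immunoproteasome subunit. It is shown in the direction of Tap1. None of the capitalised motifs was found in it, and the Y box letters stood 222 to 218 bases before the start of Tap1, which is 8 to 4 bases before the start of Psmb9 on the other strand.
Tap1, chr17:34187306-34187605, plus strand: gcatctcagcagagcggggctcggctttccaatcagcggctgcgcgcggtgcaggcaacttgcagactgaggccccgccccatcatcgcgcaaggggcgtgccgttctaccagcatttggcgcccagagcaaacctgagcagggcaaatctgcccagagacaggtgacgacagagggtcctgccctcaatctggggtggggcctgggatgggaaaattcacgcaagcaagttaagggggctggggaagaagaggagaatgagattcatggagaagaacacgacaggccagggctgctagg
Psmb8, the next gene along, held a gamma-activated site, TTCCCAGAA, 97 to 89 bases before its start, a pattern present in 8.30% of all promoters.

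The first comparison asked whether the class I machinery differed between aGVHD and control libraries when all gated cells of a library were summed. Of the 8 members tested, none passed limma's test with Benjamini-Hochberg adjustment over 2382 genes at a threshold of 0.05, against 124 of all genes, a background of 5.21% (2.56% higher and 2.64% lower in aGVHD). Tap2 and Tapbp had the largest positive differences, B2m and Tap1 lay between, and H2-D1, H2-Q10, Psmb8 and Psmb9 had differences close to 0. The median log2 fold change was 0.20 over the members and -0.01 over all genes tested, and 5 of 8 members were positive. Unadjusted p was under 0.05 for 2 members, Tap2 and Tapbp, and for 22.2% of all genes. The 124 calls fell to 41 without control replicate 1, and to 3 with libraries of at least 20 cells only.

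B2m, the light chain shared by all class I molecules, was the most abundant member. It spanned 2009 to 3916 CPM in aGVHD libraries with a median of 2979, against 1402 to 3332 CPM in control libraries with a median of 2533. The groups overlapped, with 10 of 12 aGVHD libraries above the control mean and 2 of 12 above the highest control library. B2m averaged 2975 ± 543 CPM in aGVHD libraries (SD, n = 12) and 2407 ± 674 CPM in control libraries (SD, n = 10). The log2 fold change was 0.32 with an SE of 0.16 and a 95% interval of -0.01 to 0.66 (limma adjusted p = 0.237). As a fold, that interval ran from 0.993 to 1.58.

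The heavy chains showed smaller differences. H2-D1, a classical heavy chain that presents peptides to CD8 T cells, spanned 1144 to 2118 CPM in aGVHD libraries with a median of 1507, against 931 to 2110 CPM in control libraries with a median of 1599. Those ranges nearly coincide, and the log2 fold change was 0.09 with an interval of -0.23 to 0.41 (limma adjusted p = 0.797). H2-Q10, a class I molecule of the Qa region known in mice as a secreted protein of the liver, had 25.3 to 114 CPM in aGVHD libraries and 31.2 to 141 CPM in control libraries, with a log2 fold change of -0.18 and an interval of -0.64 to 0.28 (limma adjusted p = 0.697). Of the hepatocyte markers, Alb had 7 transcripts, Ttr 13, Serpina1a 2 and Apoa2 0 in all kept cells, against 251 H2-Q10 transcripts in aGVHD and 116 in control cells. H2-D1 lost its positive sign without control replicate 1, at -0.0055, and with libraries of at least 20 cells only, at -0.025.

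Class I heavy chains include near-identical genes, among which reads of some rows can be split. In GENCODE transcripts, 43 of the 251 windows of 50 bases in the last 300 bases of H2-D1 occur unchanged in transcripts of other genes, 2 of them in another class I gene, and 0 do so for H2-Q10. Only unchanged windows were counted, so reads placed with mismatches are not covered. Whether the H2-D1 and H2-Q10 rows hold reads of other class I genes, H2-K1 among them, was not tested. The neighbouring row H2-Q5, a pseudogene in the annotation, shares 117 of 251 windows with other class I genes, and H2-T10 shares 125. H2-D1 made up 52.7 ± 2.97% of the transcripts of 10 class I heavy chain rows in aGVHD libraries (SD, n = 12) and 53.8 ± 6.36% in control libraries (SD, n = 10). H2-Q10 made up 2.70 ± 0.90% in aGVHD libraries and 3.06 ± 1.19% in control libraries. H2-Q5 took 19.1 ± 1.92% of those transcripts in aGVHD libraries and 18.6 ± 4.04% in control libraries, and it was named after its values were seen. All 10 rows summed, a value that does not depend on splitting among them, had a log2 fold change of 0.13 (limma adjusted p = 0.653).

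The transporter and tapasin held the largest differences. Tap2, whose product pairs with that of Tap1 to carry peptides into the endoplasmic reticulum, had 55.3 to 198 CPM in aGVHD libraries with a median of 114, against 0 to 115 CPM in control libraries with a median of 62.0. Among the aGVHD libraries, 11 of 12 were above the control mean and 5 of 12 above the highest control library. Tap2 averaged 113 ± 41.5 CPM in aGVHD libraries (SD, n = 12) and 62.2 ± 38.2 CPM in control libraries (SD, n = 10), a log2 fold change of 0.74 with an SE of 0.27 and an interval of 0.18 to 1.30 (limma p = 0.0121, adjusted p = 0.109). The values rest on 359 transcripts in aGVHD and 95 in control libraries, down to 7 in an aGVHD library and 0 in control replicate 5. Tap2 passed in 2 of the alternatives: an earlier form of the fit, whose scaling put the median of all genes at 0.29, gave it 1.05 (limma adjusted p = 0.0413), and the fit with no low-count filter, where the median of all genes was -0.99, gave it 0.75 (limma adjusted p = 0.0475).

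Tapbp encodes tapasin, which ties the empty heavy chain to the transporter. It had 134 to 362 CPM in aGVHD libraries with a median of 227, against 45.2 to 250 CPM in control libraries with a median of 146. The groups overlapped, with 11 of 12 aGVHD libraries above the control mean and 4 of 12 above the highest control library. The log2 fold change was 0.45 with an SE of 0.19 and an interval of 0.06 to 0.85 (limma p = 0.0256, adjusted p = 0.153). Tap1, the partner of Tap2, had 71.1 to 234 CPM in aGVHD libraries and 45.2 to 185 CPM in control libraries, with a log2 fold change of 0.31 and an interval of -0.14 to 0.77 (limma adjusted p = 0.436).

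The immunoproteasome subunits, which replace standard catalytic subunits in immune cells, differed by less than the spread between libraries. Psmb8 averaged 197 ± 45.0 CPM in aGVHD libraries (SD, n = 12) and 198 ± 50.6 CPM in control libraries (SD, n = 10), with a log2 interval of -0.45 to 0.24 (limma adjusted p = 0.777). Psmb9 averaged 109 ± 35.8 CPM in aGVHD libraries and 102 ± 31.5 CPM in control libraries, with a log2 interval of -0.45 to 0.33 (limma adjusted p = 0.896). Tap1 and Psmb9, which share their promoter region, thus had fitted log2 fold changes of 0.31 and -0.06, and a test of the gap between them was not made.

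**Figure D1:**
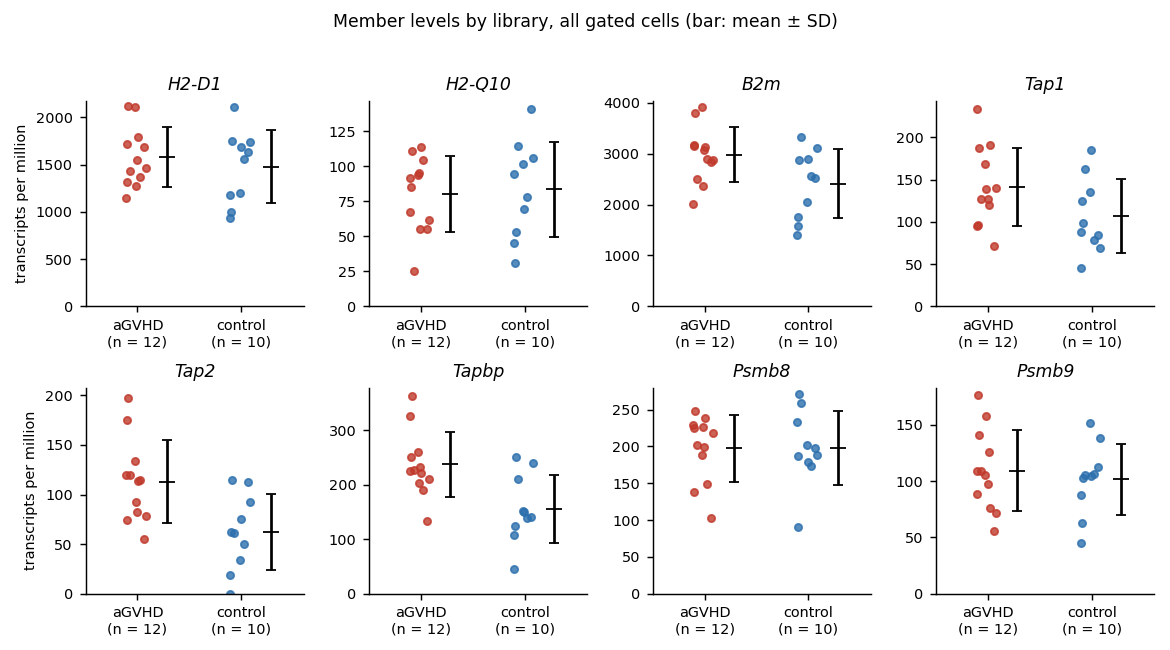
CPM of each member in each library of all gated cells, with 12 aGVHD libraries on the left and 10 control libraries on the right of each panel; points are libraries and bars the mean ± SD. The groups overlap for all 8 members, and 5 of 12 aGVHD libraries lie above the highest control library for Tap2.

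Within the title sets, the log2 fold changes of all members but H2-Q10 were higher in the dated set in all gated cells. For no member did the difference between sets pass. Tap2 averaged 116 ± 50.2 CPM in dated aGVHD libraries (SD, n = 8) and 42.7 ± 32.6 CPM in dated control libraries (SD, n = 6), a log2 fold change of 1.08 (limma adjusted p = 0.139). In the G1 set it averaged 108 ± 19.9 CPM in aGVHD libraries and 91.3 ± 26.5 CPM in control libraries (SD, n = 4 each), a log2 fold change of 0.15 (limma adjusted p = 0.941). B2m had log2 fold changes of 0.51 (dated) and 0.03 (G1), and Tapbp had 0.59 (dated) and 0.22 (G1). The interaction of group and title set, coded as the G1 difference minus the dated difference, was -0.95 for Tap2 with an interval of -2.10 to 0.20 (limma adjusted p = 0.904) and -0.45 for B2m with an interval of -1.18 to 0.28 (limma adjusted p = 0.948). Among all genes the interaction called 0 at the adjusted threshold and 137 of 2812 at an unadjusted p under 0.05. For H2-D1 the values were 0.26 (dated) and -0.17 (G1), for Psmb9 0.074 and -0.27, for Psmb8 -0.082 and -0.14, and for H2-Q10 -0.18 and -0.17.

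The second comparison kept to neutrophil-like cells, in 12 aGVHD libraries and the 6 control libraries with at least 10 such cells. No member passed (0 of 8, against 3 of 1324 genes and a background of 0.227%). The differences of B2m, Tap2 and Tapbp were smaller than in all gated cells, and both heavy chains had lower means in aGVHD than in control libraries. The median over the members was 0.13 and that over all genes -0.03, with 5 of 8 members positive. An unadjusted p under 0.05 was reached by 1 member, H2-Q10, and by 9.21% of all genes.

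H2-Q10 had 79.7 to 242 CPM in neutrophil-like cells of aGVHD libraries with a median of 159, against 182 to 289 CPM in those of control libraries with a median of 258. All 12 aGVHD libraries lay below the control mean, and 7 of 12 lay below the lowest control library. H2-Q10 averaged 158 ± 59.0 CPM in aGVHD libraries (SD, n = 12) and 243 ± 44.6 CPM in control libraries (SD, n = 6), a log2 fold change of -0.72 with an SE of 0.25 and an interval of -1.23 to -0.21 (limma adjusted p = 0.376). These are 191 and 70 transcripts, with 5 to 27 in a single aGVHD library and 7 to 16 in a single control library. By p it ranked 27 of 1324 genes. H2-D1 had 1721 to 3198 CPM in aGVHD libraries and 2077 to 3434 CPM in control libraries; its log2 fold change was -0.24 with an interval of -0.55 to 0.06 (limma adjusted p = 0.638), with 1 of 12 aGVHD libraries above the control mean.

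B2m in neutrophil-like cells spanned 3412 to 5785 CPM in aGVHD libraries and 2963 to 5013 CPM in control libraries, with a log2 fold change of 0.08 and an interval of -0.24 to 0.41 (limma adjusted p = 0.892). Tap2 averaged 181 ± 80.9 CPM in aGVHD libraries (SD, n = 12) and 112 ± 54.0 CPM in control libraries (SD, n = 6), with a log2 fold change of 0.51 and an interval of -0.28 to 1.30 (limma adjusted p = 0.687). Tapbp averaged 355 ± 84.7 CPM in aGVHD libraries and 279 ± 79.9 CPM in control libraries, a log2 fold change of 0.29 (limma adjusted p = 0.687). Tap1, Psmb8 and Psmb9 had log2 fold changes of 0.18, -0.16 and 0.24, each with an interval that spans 0. The control libraries held only 34 Tap2 transcripts and 40 Psmb9 transcripts in these cells. A rise of 1 log2 unit in either gene lay inside its interval, -0.28 to 1.30 for Tap2 and -0.61 to 1.09 for Psmb9. A fall of that size lay outside.

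**Figure D2:**
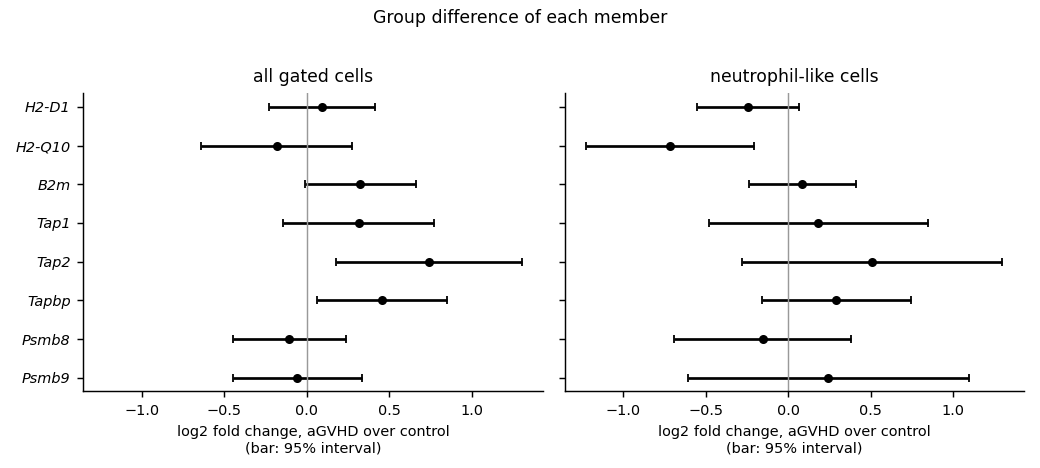
Log2 fold change, aGVHD over control, of each member in all gated cells (left) and neutrophil-like cells (right), with 95% intervals from limma as bars. In all gated cells the intervals of Tap2 and Tapbp lie above 0, and in neutrophil-like cells that of H2-Q10 lies below 0; no member passed after adjustment over all genes.

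Ratios of members within a library do not depend on scaling between libraries. Of 5 ratios computed after the member values were seen, those of B2m and of Tapbp to H2-D1 set the groups farthest apart; they are given with no test. A library held 1.90 ± 0.20 B2m transcripts for each H2-D1 transcript in the aGVHD group (SD, n = 12) and 1.62 ± 0.13 in the control group (SD, n = 10). All 12 aGVHD libraries exceeded the control mean, and 8 of 12 exceeded the highest control library. In neutrophil-like cells the ratio was 1.94 ± 0.18 in aGVHD libraries (n = 12) and 1.57 ± 0.30 in control libraries (n = 6), with 11 of 12 aGVHD libraries above the control mean. Tapbp over H2-D1 was 0.153 ± 0.034 in all gated cells of aGVHD libraries and 0.105 ± 0.031 in those of control libraries, and 0.153 ± 0.034 in neutrophil-like cells of aGVHD libraries and 0.103 ± 0.031 in those of control libraries. The ratio shows unequal differences, not that either gene was level. Psmb9 over Psmb8 was 0.574 ± 0.237 in aGVHD libraries (n = 12) and 0.527 ± 0.158 in control libraries (n = 9).

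**Figure D3:**
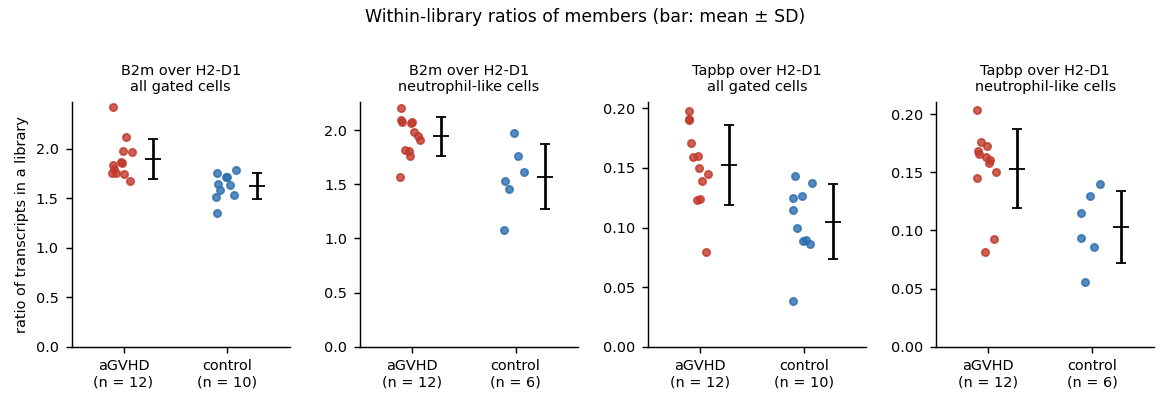
Ratio of B2m or Tapbp transcripts to H2-D1 transcripts in each library, for all gated cells and neutrophil-like cells, with aGVHD libraries left of control libraries and bars for the mean ± SD. For B2m over H2-D1 in all gated cells, 8 of 12 aGVHD libraries lie above the highest control library.

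In single cells, most neutrophil-like cells carried transcripts of both chains of the class I molecule. After each cell was thinned to 500 transcripts, B2m was seen in 77.2 ± 12.7% of neutrophil-like cells of aGVHD libraries (SD, n = 12) and 77.3 ± 9.01% of those of control libraries (SD, n = 6). H2-D1 was seen in 59.7 ± 12.1% of them in aGVHD libraries and 65.2 ± 16.6% in control libraries. H2-Q10 was seen in 7.47 ± 4.41% in aGVHD libraries and 12.2 ± 6.74% in control libraries. The groups differed by less than 1 SD for B2m and H2-D1, and for H2-Q10 by more than the SD of the aGVHD libraries and less than that of the control libraries. Thinned to 1000 transcripts, which leaves 466 aGVHD and 130 control cells, H2-Q10 was seen in 11.4 ± 6.24% in aGVHD libraries and 22.9 ± 11.1% in control libraries, a gap larger than either SD. Without thinning, B2m was seen in 96.6% of 504 aGVHD and 96.1% of 155 control cells of the class, H2-D1 in 95.4% of aGVHD and 97.4% of control cells, and H2-Q10 in 24.6% of aGVHD and 32.3% of control cells. Without thinning, B2m was also seen in 8.53% of 2110 barcodes taken as unused, whose median total was 81 transcripts against 2330 in neutrophil-like cells.

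Across cell classes, members are given as transcripts per 1e+06 named-gene transcripts, pooled over both groups, with exact Poisson 95% intervals that cover counting error only. The classes come from clusters of these cells, made without the members, and are described without a test. The dendritic-like cluster was led by Ccl17 and Il12b but also by Ifng and Tbx21, genes known from T and NK cells. B2m was similar in neutrophil-like (6693, 6536 to 6854), B or plasma-like (6541, 5845 to 7297) and macrophage/monocyte-like cells (6183, 5865 to 6514), where the interval of B or plasma-like cells overlaps both others. It was lower in dendritic-like cells at 4277, in erythroid-like cells at 2928 and in epithelial-like cells at 1731. H2-D1 had the same ends among named classes, with 3607 in neutrophil-like and 651 in epithelial-like cells. Unused barcodes held 1044 for B2m and 1049 for H2-D1, and the H2-D1 level of epithelial-like cells was below that. The gate asks for donor H2-Kb, and whether the 28 epithelial-like cells came from the donor or the recipient was not tested, nor how reads of BALB/c class I alleles were counted.

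Loading genes differed in order from the chains. Pooled over both groups, Psmb8 had 490 (404 to 590) in macrophage/monocyte-like cells, with dendritic-like cells at 448 (387 to 516) and epithelial-like cells at 436 (358 to 525) within its interval, and neutrophil-like cells at 350 (315 to 389). That order did not hold in each group when its cells were pooled. Macrophage/monocyte-like cells had 597 (480 to 734) in 20 pooled aGVHD cells and 283 (178 to 429) in 15 pooled control cells. Neutrophil-like cells, pooled likewise, had 338 (299 to 380) in aGVHD and 401 (318 to 498) in control. Outside 1 aGVHD library, macrophage/monocyte-like cells were too few for values by library. The intervals leave out spread between libraries, and a difference between the groups was not tested. Tapbp was 503 (461 to 549) in neutrophil-like cells and 98.1 (63.5 to 145) in epithelial-like cells. Tap1 had 326 (292 to 363) in neutrophil-like cells, 280 (216 to 358) in macrophage/monocyte-like cells and 185 (147 to 231) in dendritic-like cells. Psmb9 lay between 184 and 228 in those 4 classes, with overlapping intervals.

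H2-Q10 had, on the same scale, 261 in neutrophil-like cells (231 to 295, from 267 transcripts) and 189 in cells that stayed unnamed, against 35.0 (15.1 to 69.0) in macrophage/monocyte-like, 32.8 (17.9 to 55.1) in dendritic-like and 11.8 (2.43 to 34.4) in epithelial-like cells and 42.4 (18.3 to 83.5) in unused barcodes. Erythroid-like cells had 109 (29.8 to 280) and B or plasma-like cells 81.5 (22.2 to 209), each from 4 transcripts, and the first of these intervals reaches the neutrophil-like level. Within the class it varied among the 5 clusters. Cluster 2 had 432 (353 to 522); its leading genes include the interferon-response genes Ifit3, Slfn4 and Oas3, and also Stfa2 and Asprv1. Cluster 8, led by Adam30, Osm and Ube2v2, had 396 (295 to 521), an interval that overlaps that of cluster 2. Levels were 211 (147 to 294) in cluster 3, 171 (118 to 238) in cluster 10 and 145 (104 to 197) in cluster 1, led by Lif, Ccl3 and Ccl4. Cluster 10 was led by the granule genes Ngp, Camp and Ltf and made of 67 aGVHD and 2 control cells. It had the lowest level of H2-D1 in the class, 1968 (1778 to 2172) against 3877 to 4165 in the other 4 clusters. B2m was lowest there too, at 4292 against 5843 to 8228, and so was Tapbp, at 256 against 505 to 586. Tap1, Tap2, Psmb8 and Psmb9 were also lowest there, with intervals that overlap those of other clusters. Leaving cluster 10 out gave log2 fold changes of -0.66 for H2-Q10 and -0.21 for H2-D1 in neutrophil-like cells.

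**Figure D4:**
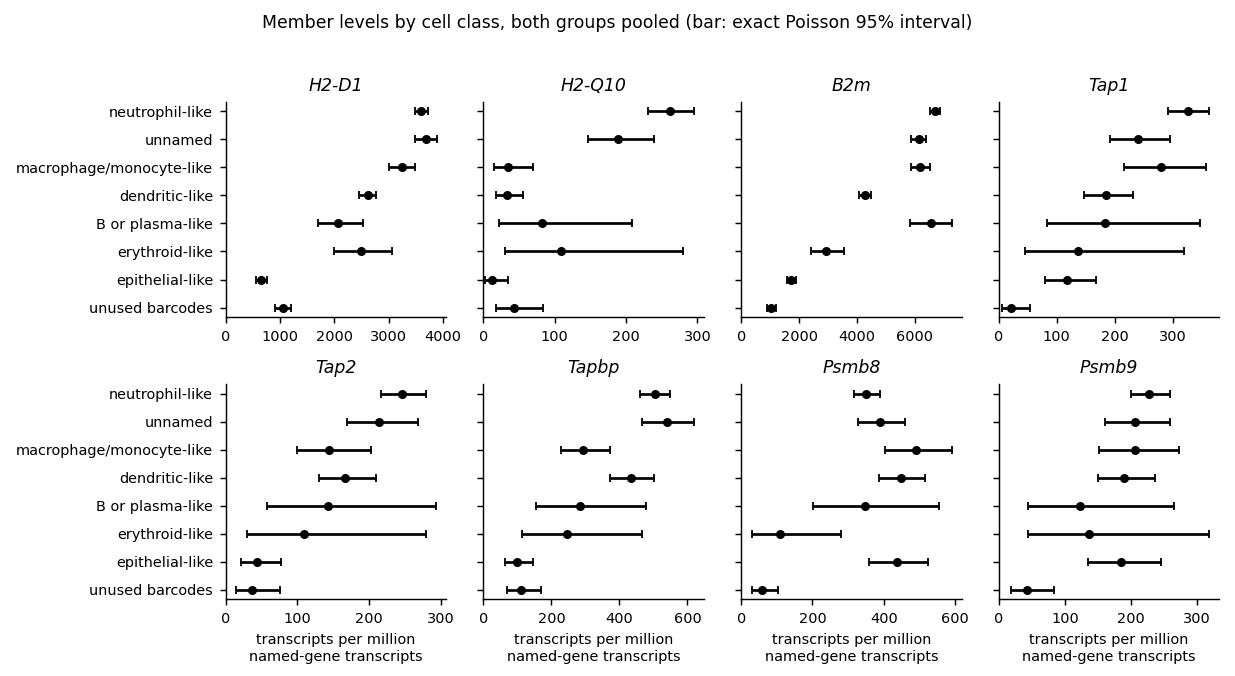
Level of each member in each cell class and in unused barcodes, as transcripts per 1e+06 named-gene transcripts pooled over both groups, with exact Poisson 95% intervals as bars. In these pooled values B2m is highest in neutrophil-like and B or plasma-like cells, the latter with unlike values in the 2 groups. H2-Q10 is at 261 in neutrophil-like cells and below 36 in macrophage/monocyte-like, dendritic-like and epithelial-like cells.

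Over the 22 libraries, H2-D1 was the gene closest to B2m among 2382, with a root mean square distance of 0.171 between gene-centred log2 CPM, where the median gene was at 1.22 and B2m itself varied by 0.378. The closest genes outside the members were Ptafr, the platelet-activating factor receptor, at 0.225, Sdcbp, a scaffold protein, at 0.244, and Lcp1, an actin-bundling protein of leukocytes, at 0.264. Abundant genes with little counting noise have small distances on this measure, and Tap2, with few transcripts, was at 1.30.

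Other genes of the pathway were taken from lists, with counts in all gated cells unless said otherwise. Of 4 other class I heavy chains tested none passed, and their median log2 fold change was 0.15 (H2-Q6 0.33, adjusted p = 0.346). Of 5 chaperones and trimming genes, 1 fell (2.64% of all genes did): Calr, which encodes calreticulin, a chaperone of the loading complex, averaged 136 ± 49.0 CPM in aGVHD libraries (SD, n = 12) and 215 ± 59.5 CPM in control libraries (SD, n = 10), a log2 fold change of -0.71 with an SE of 0.20 (limma adjusted p = 0.0439). It no longer passed with libraries of at least 20 cells only (adjusted p = 0.164), and it passed in 9 of the 22 fits that leave out 1 library. Of 13 proteasome genes none passed, and 2 were positive, with a median of -0.19 (Psma1 -0.56, adjusted p = 0.145).

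Of 10 interferon-gamma targets tested, 1 rose (2.56% of all genes did), all 10 were positive, and the median was 0.65 against -0.01 over all genes. The gene that rose was Gbp7, an interferon-induced GTPase, with 290 ± 103 CPM in aGVHD libraries (SD, n = 12) and 140 ± 77.4 CPM in control libraries (SD, n = 10), a log2 fold change of 1.02 with an SE of 0.25 (limma adjusted p = 0.0246). Irf1, a transcription factor that binds class I promoters, averaged 608 ± 306 CPM in aGVHD libraries and 318 ± 178 CPM in control libraries, and none of the 11 interferon receptors and regulators passed (Irf1 limma adjusted p = 0.0671). Of 2 genes tested from the list of class I receptors, 1 rose, beside the same 2.56% of all genes. It was Lilr4b, and Pirb had an adjusted p of 0.138. Lilr4b is a receptor of the gp49 family, placed in the list for its relation to the Lilrb genes, and whether it binds class I was not tested. It averaged 1796 ± 414 CPM in aGVHD libraries and 1082 ± 359 CPM in control libraries (log2 fold change 0.73, limma adjusted p = 0.0264). Gbp7 and Lilr4b did not pass without control replicate 1 (limma adjusted p = 0.0587 for each) or with libraries of at least 20 cells only (0.148 and 0.164). MHC class II genes, which present peptides in dendritic cells and macrophages, were all negative (6 of 6, median -0.74), and none passed; dendritic markers were lower in aGVHD libraries in the same cells, as given above, and their part in this was not tested. Within neutrophil-like cells no gene of any of these lists passed, and the median of 9 interferon-gamma targets was -0.03. The 4 MHC class II genes tested in neutrophil-like cells were all negative, with a median of -0.23 (H2-Aa -0.91, limma adjusted p = 0.459).

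**Figure D5:**
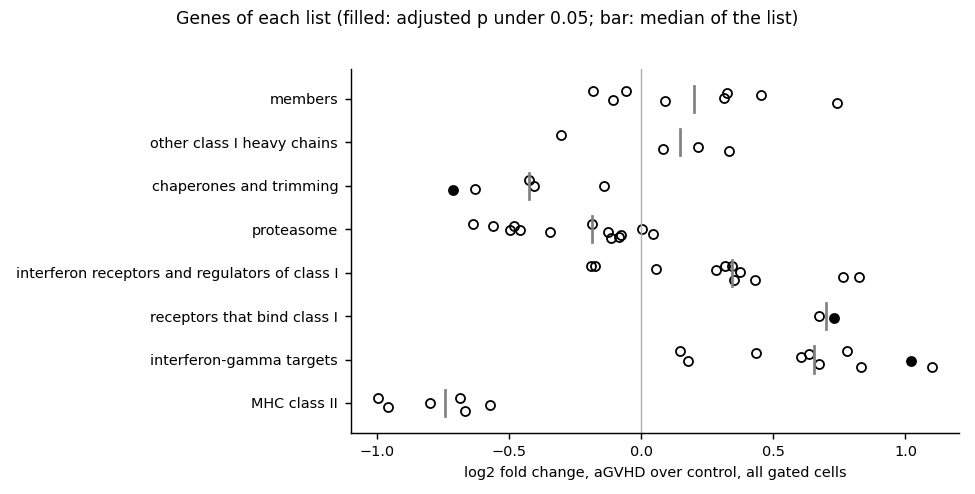
Log2 fold change, aGVHD over control, of each tested gene in all gated cells, by list; filled points passed the adjusted threshold of 0.05 and grey bars are list medians. All 10 interferon-gamma targets lie above 0 and all 6 MHC class II genes below 0, and the 8 members spread between -0.18 and 0.74.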

How the data were processed

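Per the labels' protocols, cells were sorted into plates and libraries were made by CEL-Seq2; the submitters' processing notes list the tools bcl2fastq (2.17.1.14) and BWA (0.6.2-r126). Build and annotation are not given in the sources used here. The deposited values are estimated transcript counts per gene and barcode, not scaled to depth: all 1419098 nonzero values could be turned back into whole numbers of identifiers, out of 4096 possible (tolerance 1e-06). They were rounded. Gene models without a proper name took 32.2 to 78.7% of a library's kept transcripts, and leaving them out was an alternative. The 192 barcodes of a table are the same set of plate barcodes in every library, and 96 of them held most transcripts. The other 96 were taken as unused. They held 1.42 to 7.72% of the transcripts of an aGVHD library and 2.07 to 16.0% in control libraries. Identifiers remove PCR copies. The exact Poisson intervals of cell classes and clusters cover counting error only, and the limma intervals reflect scatter among libraries.

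Barcodes with at least 500 transcripts were kept (1383), with no doublet caller. They were clustered on 167 genes, without the members (Pearson residuals, 12 components, 10 neighbours, Leiden resolution 1.0), a setting chosen by cluster content after several clusterings had been looked at. Clusters were named from fixed markers, thresholds set with the data known: at least 3 markers raised 1.5-fold, more than for any other type, and no other type with more markers among the 10 leading genes. By the last condition cluster 7 (81 aGVHD and 29 control cells), with 7 neutrophil markers raised but the eosinophil marker Siglecf leading, stayed unnamed, as did 428 cells in all.

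Transcripts were summed per library and tested with limma 3.58.1 (voom weights, title set as covariate) on genes past a low-count filter (10 transcripts in a library of median size, 15 over all), after trimmed-mean scaling over those genes. A first form of the fit scaled over all genes before filtering; it put the median of all genes at 0.29 and was replaced after its member values had been seen, and its results are kept as an alternative. A count model was not used, because the unit of the tables was entered as other. The fit was tested on counts simulated with a fixed dispersion of 0.2 for all genes. In all gated cells it recovered 39% of the genes changed by 1 log2 unit and 95% of those changed by 2, with 6 false calls. In neutrophil-like cells it recovered 33% and 94%, with 2 false calls. In that setting most changes of 1 log2 unit were missed. No pair of libraries of a group had identical values.

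The members and all lists were chosen with earlier results of these data known. The text names all members, and of each list the genes past the threshold (at most 4) or otherwise among the 2 lowest p. A rule to name genes alike in pattern to H2-K1 could not be applied.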

Additional observations from a re-analysis of the deposited data

How the results depend on the processing

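No member passed in any alternative, other than Tap2 in all gated cells under 2 of them, given with its values above. Genes called in all gated cells, 124 as reported, numbered 7764 with no low-count filter (181 higher and 7583 lower, median of all genes -0.99), 73 on log2(CPM + 1) with a trend (median of all genes 0.36), 7 in the dated set, 6 in the G1 set, 3 with libraries of at least 20 cells and 4 with the quality filter on cells. Leaving out 1 library gave 41 to 179; it gave 80 or fewer without control replicate 1, 4, 6, 8 or 9 or aGVHD replicate 2, 3, 4, 6 or 8. In neutrophil-like cells, 3 as reported, the counts were 6 with no filter, 1 in the dated set, 0 in the G1 set (97 at an unadjusted p under 0.05), 0 with the trend (149), 0 with scaling over all genes before the filter (151), and 0 to 5 leaving out 1 library (0 without control replicate 3, 4, 7 or 8 or aGVHD replicate 4, 6 or 7, 1 without control replicate 2 and 5 without aGVHD replicate 10). The cause was not tested.

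Whether the shared title numbers pair the samples could not be told from so few pairs. Correlations of same-numbered deviations ran from -0.04 to 0.27 over 6 pairs in all gated cells and from -0.03 to 0.27 over 4 pairs in neutrophil-like cells. With title number as a replicate block, 46 of 3034 genes were called in all gated cells and 8 of 1145 in neutrophil-like cells, against 7 of 1646 and 0 of 765 (63 at an unadjusted p under 0.05) over the same libraries without it, and no member passed.

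Signs turned for members near 0. In all gated cells, H2-D1 was -0.17 in the G1 set, -0.025 with at least 20 cells and -0.017 with the quality filter; H2-Q10 was 0.050 with scaling over all genes; Psmb8 was 0.013 with the trend, 0.069 with the block and 0.18 with scaling over all genes; Psmb9 was 0.074 in the dated set, 0.087 with the trend, 0.25 with the block, 0.12 over those pairs without it and 0.20 with scaling over all genes. In neutrophil-like cells, B2m was -0.032 with no filter and -0.12 in the G1 set; Tap1 was -0.18 in the G1 set; H2-D1 was 0.0050 with scaling over all genes; Psmb8 was 0.12 in the dated set, 0.064 with the block, 0.16 over those pairs without it and 0.11 with scaling over all genes. Leaving out 1 library gave -0.0055 to 0.17 for H2-D1 and -0.12 to 0.022 for Psmb9 in all gated cells, and -0.058 to 0.13 for B2m, -0.36 to 0.025 for Psmb8 and -0.052 to 0.44 for Psmb9 in neutrophil-like cells. Summing the heavy chains leaves H2-D1 and H2-Q10 no value of their own. Of 64 shares of cells recomputed with thinning to 1000 transcripts or with none, 54 moved by more than 1 SD. Such shares rise with the transcripts kept per cell, so this count does not speak to the group differences. B2m in neutrophil-like cells of aGVHD libraries, for one, went from 77.2% at 500 to 90.8% at 1000 and 96.8% without thinning. The standard errors of the fit reflect all scatter among libraries, of which counting noise is a part. In neutrophil-like cells they ran from 0.15 for H2-D1 to 0.41 for Psmb9.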
